A study of Mus musculus with 6 samples.

Results

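The 10 genes described here encode parts of the machinery by which a cell engulfs a dying neighbour, other than the TAM receptors, their ligands and MEGF10. They were picked by gene symbol, for their roles, and are *Mfge8*, *Itgav*, *Itgb5*, *Lrp1*, *Megf11*, *Adgrb1*, *Gulp1*, *Elmo1*, *Dock1* and *Rac1*. All 10 were found among the 24421 genes listed. RNA-seq was performed on astrocytes isolated from the hippocampus of adult male mice, to compare astrocytes before and after the loss of microglia. Both groups were Siglechdtr/dtr mice on a C57BL/6 background, which carry the receptor for diphtheria toxin (DT) in both copies of *Siglech*, a gene used mainly by microglia. The homozygous insertion itself lowers microglial Siglec-H, so that this change is shared by both groups, and no library from mice without the insertion was analysed here. The PBS group received phosphate-buffered saline and the DT group received DT at 50 µg/kg, both by intraperitoneal injection, and hippocampi were taken 2 days later. Each of the 3 libraries of a group came from a pool of 2 mice. Cells were first passed over anti-CD11b beads to remove microglia, and astrocytes were then captured with beads against astrocyte cell surface antigen-2 (ACSA-2).

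A cell that engulfs apoptotic debris first recognises signals such as phosphatidylserine on the debris. Secreted bridging proteins such as MFGE8 bind phosphatidylserine and link it to integrins, while LRP1, BAI1 (the product of *Adgrb1*) and MEGF11 are receptors at the cell surface. From there, a route through the adaptor GULP1 and another through the CRKII, ELMO1 and DOCK1 complex reach the small GTPase RAC1, which drives the actin remodelling that closes the phagocytic cup. Astrocytes use engulfment receptors to remove synapses and debris.

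Stretches of coding sequence show 2 of the contacts that tie these members to each other. The first is the integrin-binding site of *Mfge8*, whose capitals mark the codons for arginine, glycine and aspartate that integrin αvβ5, the product of *Itgav* and *Itgb5*, can bind. It lies at chr7:79145284-79145340 of mm10 on the minus strand, in exon 3 of 10, and the capitals start at residue 87 of a protein of 463 residues. The other lies in the cytoplasmic tail of *Lrp1*, whose capitals mark codons for the pattern asparagine, proline, any residue and tyrosine, which phosphotyrosine-binding domains such as that of GULP1 recognise. It lies at chr10:127539284-127539343 on the minus strand, in exon 88 of 89, and the pattern starts at residue 4471 of 4545. A second copy of the pattern in the tail starts at residue 4505, across the junction of exons 88 and 89. All sequences were read from mm10 with the transcripts of GENCODE M21, written 5′ to 3′.
Mfge8: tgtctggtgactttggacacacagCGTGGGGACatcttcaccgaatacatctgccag
Lrp1, first copy: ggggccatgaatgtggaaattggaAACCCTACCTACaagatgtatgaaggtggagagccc
Lrp1, second copy: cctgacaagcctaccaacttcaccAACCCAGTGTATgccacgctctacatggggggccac

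The 6 libraries held between 21704891 and 32933975 reads assigned to genes. Astrocyte markers summed to between 28160 and 30478 TPM over the 6 libraries, and *Siglech* was at 0 reads in all 3 DT libraries, where a count of 0 allows up to 3 reads per library. Markers of choroid plexus summed to 100 to 2022 TPM after PBS and 1247 to 3425 TPM after DT, and those of ependymal cells to 595 to 748 TPM and 800 to 1338 TPM, and their part in the differences given here was not tested. Levels are given in TPM, which scales reads to transcript length and library depth and can be compared between genes. For the test, reads were scaled to an adjusted library size and not to length (CPM), and log2(CPM + 0.1) was compared between the groups with limma, two-sided, with Benjamini-Hochberg adjustment over the 15137 genes whose mean CPM reached 0.5. Each limma p-value sets the difference between the groups against the spread between pools within a group, partly estimated from other genes. Each group had 3 pools from 3 independent experiments. In such bulk RNA, fewer cells of a type and less RNA per cell cannot be told apart.

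None of the 10 members passed an adjusted p-value under 0.05, where 0.713% of all genes tested did. No member passed with edgeR (quasi-likelihood or exact test) or DESeq2 on the recovered reads either. The smallest adjusted p-value of a member was 0.266 in the main limma fit and 0.134 over the alternative limma fits. At an unadjusted p-value under 0.05, 2 of 10 members were found, *Elmo1* and *Mfge8*, where 10.4% of all genes tested were. These 2 genes were also the members whose groups did not overlap, both with all DT libraries below all PBS libraries, a pattern seen in 7.57% of all genes tested. The log2 fold change was positive for 4 members and negative for 6, where 51.3% of all genes tested were negative. The members' median was -0.09, beside a median of -0.01 over all genes tested. For 8 of 10 members, the 95% interval of the difference lay within 1.5-fold in either direction. The exceptions were *Elmo1* and *Megf11*, the members with the fewest reads.

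**Figure D1:**
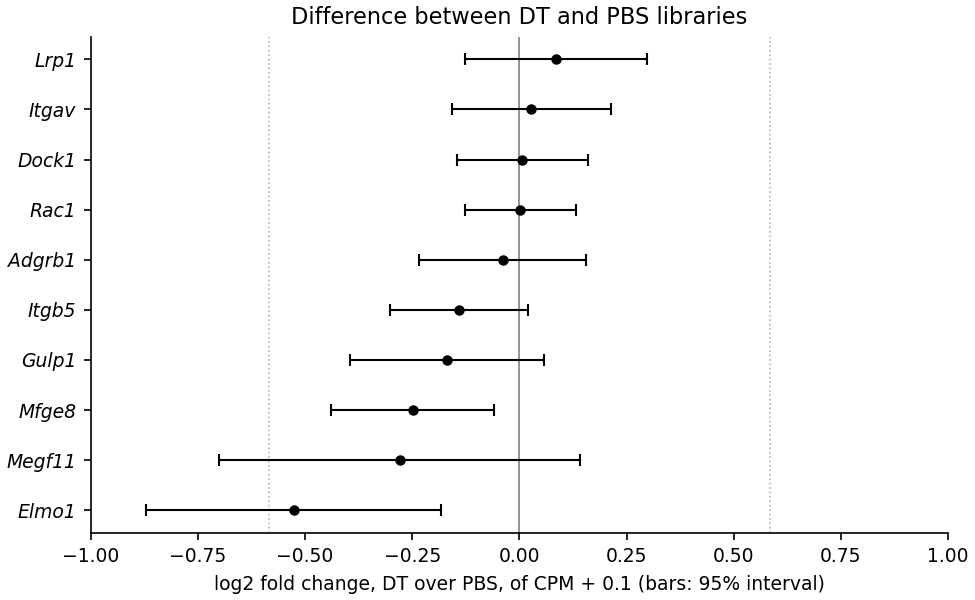
The log2 fold change of CPM + 0.1, DT over PBS, is plotted for the 10 members as points with 95% intervals, and dotted lines mark 1.5-fold in either direction. The intervals of Elmo1 and Mfge8 lie below 0, and those of Elmo1 and Megf11 reach past the dotted line.

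The members covered a wide range of levels. In the PBS libraries, they stood between percentile 37.6 (*Elmo1*) and percentile 99.8 (*Lrp1*) of the genes tested by mean CPM, which is not scaled to length. Their median level was 187 TPM in the PBS libraries and 191 TPM in the DT libraries. The order from the highest level in the PBS libraries was *Mfge8*, *Lrp1*, *Rac1*, *Itgb5*, *Itgav*, *Dock1*, *Adgrb1*, *Gulp1*, *Elmo1* and *Megf11*. Neighbours in this order were separated by all 3 PBS libraries except *Itgav* and *Dock1*, and *Elmo1* and *Megf11*. In the DT libraries, *Itgb5* and *Itgav* overlapped as well, and *Elmo1* and *Megf11* stood in the opposite order while still overlapping. The most abundant members were the bridging protein, *Lrp1* and *Rac1*, and both adaptor routes held a member of low level, *Gulp1* in the one and *Elmo1* in the other. The coefficient of variation between the libraries of a group ranged from 1.19% to 21.7% after PBS and from 1.81% to 17.0% after DT.

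**Figure D2:**
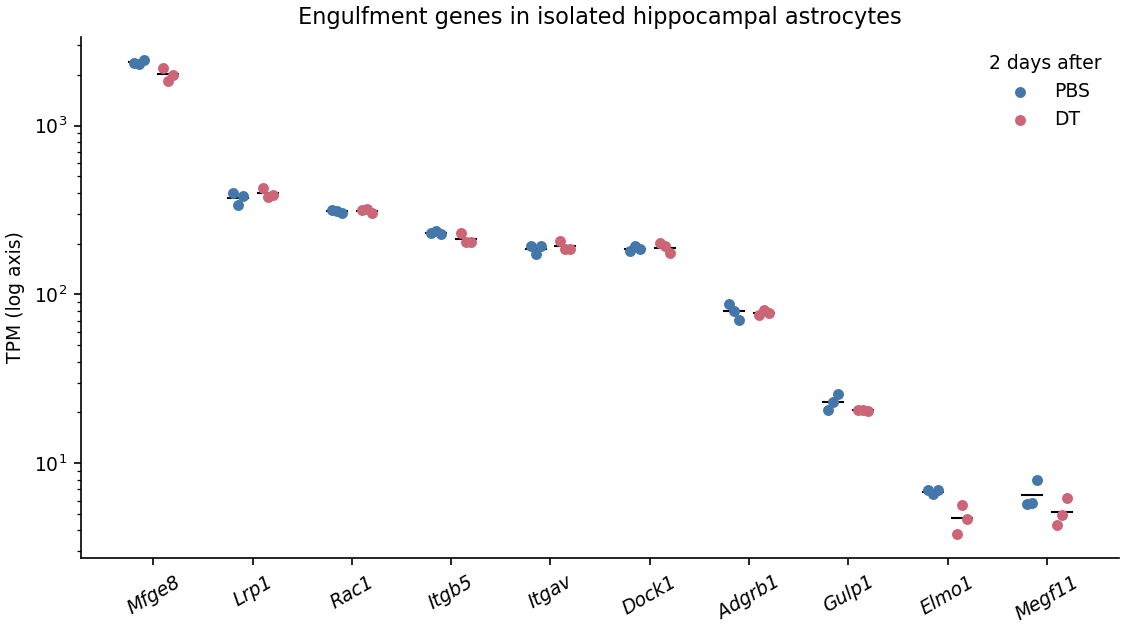
TPM on a log axis is plotted for each member, with 1 point per library (blue for PBS, red for DT, 3 libraries each) and a bar at the group mean. The levels run from 2371 TPM for Mfge8 down to 6.48 TPM for Megf11 in the PBS libraries, and the DT libraries of Elmo1 and Mfge8 all lie below their PBS libraries.

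*Mfge8*, the secreted bridge between phosphatidylserine and integrins, lies on chromosome 7, minus strand, from 79133768 to 79149060. Its level was 2361, 2316 and 2436 TPM in PBS libraries 1 to 3, and 2193, 1850 and 2006 TPM in DT libraries 1 to 3. All DT libraries lay below all PBS libraries, with DT library 2 the lowest. The PBS mean was 2371 ± 60.6 TPM and the DT mean 2016 ± 172 TPM (SD, n = 3 each). This gave a log2 fold change of -0.25 (standard error 0.08, 95% interval -0.44 to -0.06, adjusted p = 0.362 with limma), so the difference did not pass the threshold. The unadjusted p-value was under 0.05 in 15 of 17 alternative fits, and the adjusted p-value ranged from 0.134 to 0.647. With 31236 to 52016 reads per library, counting error was at most 0.566%, beside a spread between libraries of 3.51% after PBS and 10.6% after DT on the CPM scale. Endothelial markers summed to 672 to 1066 TPM after PBS and 570 to 678 TPM after DT, 8 of 8 of them with a negative fold change and none called. Markers of pericytes and smooth muscle summed to 882 to 1354 TPM and 1042 to 1454 TPM. The part of these cells in the *Mfge8* difference was not tested.

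*Edil3*, the relative of *Mfge8* that also binds αv integrins, averaged 8.20 TPM after PBS and 6.65 TPM after DT, so that *Mfge8* made up 99.7% of the summed TPM of both genes in each group. The difference in that share was 0.01 percentage points (exact permutation test, two-sided, p = 0.8, adjusted p = 0.933 over 7 families).

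*Itgav* encodes the integrin αv chain and lies on chromosome 2 from 83724397 to 83806916. Its level was 194, 173 and 194 TPM in the PBS libraries and 206, 185 and 186 TPM in the DT libraries. The groups overlapped, and the log2 fold change was 0.03 (standard error 0.08, 95% interval -0.16 to 0.21, adjusted p = 0.940 with limma). *Itgb5*, which encodes the β5 chain that pairs with αv in the MFGE8 receptor, lies on chromosome 16 from 33829665 to 33949338. Its level was 231, 236 and 229 TPM in the PBS libraries and 230, 204 and 205 TPM in the DT libraries. DT library 1 lay within the PBS range, and the other DT libraries lay below it, with a log2 fold change of -0.14 (standard error 0.07, 95% interval -0.30 to 0.02, adjusted p = 0.534 with limma).

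Other β chains can also pair with αv, and *Itgb5* was not the most abundant of them. *Itgb8*, whose product with αv activates latent TGF-β, averaged 283 TPM after PBS and 309 TPM after DT. *Itgb1* averaged 112 and 118 TPM, *Itgb3* averaged 0.802 and 0.590 TPM, and *Itgb6* was at 0 in all PBS libraries and averaged 0.022 TPM after DT. *Itgb5* held 37.0 ± 1.45% (SD, n = 3) of the TPM of these 5 chains after PBS and 33.2 ± 0.50% (SD, n = 3) after DT. All DT libraries lay below all PBS libraries, a difference of -3.84 percentage points (exact permutation test, two-sided, p = 0.1, adjusted p = 0.175 over 7 families). A p-value of 0.1 is the smallest that 3 against 3 libraries allow.

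*Lrp1* encodes a large endocytic receptor of the LDL receptor family, which takes up many ligands and can act with calreticulin in engulfment. It lies on chromosome 10, minus strand, from 127538161 to 127621148. Its level was 398, 340 and 385 TPM in the PBS libraries and 429, 380 and 390 TPM in the DT libraries. DT library 1 was the highest of the 6 and PBS library 2 the lowest, and the groups overlapped. Its log2 fold change was 0.09 (standard error 0.09, 95% interval -0.13 to 0.30, adjusted p = 0.802 with limma), on 42517 to 58016 reads per library. *Lrp1b*, its closest relative, averaged 35.9 TPM after PBS and 35.4 TPM after DT. *Lrp1* held 91.2 ± 1.08% (SD, n = 3) of the sum of both after PBS and 91.9 ± 0.698% (SD, n = 3) after DT (exact permutation test, two-sided, p = 0.6, adjusted p = 0.84 over 7 families). The difference of 0.648 percentage points ranged from 0.0616 without PBS library 2 to 1.13 without PBS library 1.

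*Megf11* encodes a transmembrane protein with EGF-like repeats and is the closest relative of *Megf10*. It lies on chromosome 9 from 64385626 to 64709205. Its level was 5.76, 5.77 and 7.91 TPM in the PBS libraries and 4.29, 4.94 and 6.23 TPM in the DT libraries. The lowest libraries were those of the DT group, but DT library 3 lay above PBS libraries 1 and 2. Its log2 fold change was -0.28 (standard error 0.18, 95% interval -0.70 to 0.14, adjusted p = 0.654 with limma). Only 199 to 335 reads per library were assigned to *Megf11*, and the interval allows any level after DT from 0.615-fold to 1.10-fold of that after PBS. Oligodendrocyte precursor markers summed to 268 to 312 TPM after PBS and 218 to 249 TPM after DT, 6 of 7 of them with a negative fold change and none called, and their part in the *Megf11* values was not tested.

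*Adgrb1* encodes BAI1, an adhesion receptor for phosphatidylserine that binds ELMO1 inside the cell, and lies on chromosome 15 from 74516195 to 74589465. Its level was 87.8, 80.1 and 70.5 TPM in the PBS libraries and 75.3, 80.7 and 77.2 TPM in the DT libraries. All DT libraries lay within the PBS range, and the log2 fold change was -0.04 (standard error 0.09, 95% interval -0.23 to 0.16, adjusted p = 0.915 with limma). Both of its relatives were more abundant: *Adgrb2* averaged 137 TPM after PBS and 147 TPM after DT, and *Adgrb3* averaged 102 and 98.9 TPM. *Adgrb1* held 24.9 ± 1.09% (SD, n = 3) of the family after PBS and 24.0 ± 0.189% (SD, n = 3) after DT (exact permutation test, two-sided, p = 0.1, adjusted p = 0.175 over 7 families). The difference of -0.864 percentage points became -0.237 without PBS library 1. Of the family, BAI1 is the member known as an engulfment receptor.

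*Gulp1*, the adaptor that binds LRP1 and MEGF family receptors, lies on chromosome 1 from 44551511 to 44796838. Its level was 20.6, 23.0 and 25.6 TPM in the PBS libraries and 20.7, 20.8 and 20.4 TPM in the DT libraries. The DT libraries lay close together and close to the lowest PBS library. Its log2 fold change was -0.17 (standard error 0.10, 95% interval -0.40 to 0.06, adjusted p = 0.607 with limma), on 464 to 764 reads per library. A RIKEN transcript overlaps *Gulp1* on the opposite strand, and the authors used strand information in mapping.

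*Elmo1* encodes the scaffold that carries DOCK1 to the membrane, and lies on chromosome 13 from 20090596 to 20608353. Its level was 6.90, 6.56 and 6.90 TPM in the PBS libraries and 3.80, 5.66 and 4.68 TPM in the DT libraries. All DT libraries lay below all PBS libraries, and DT library 1 was the lowest. The PBS mean was 6.79 ± 0.195 TPM and the DT mean 4.71 ± 0.930 TPM (SD, n = 3 each). This gave a log2 fold change of -0.53 (standard error 0.15, 95% interval -0.87 to -0.18, adjusted p = 0.266 with limma), or 0.694-fold (95% interval 0.547 to 0.881). It did not pass the threshold over all genes tested. Its unadjusted p-value was under 0.05 in 17 of 17 alternative fits and its adjusted p-value in none of them, with a range from 0.143 to 0.487. With 160 to 368 reads per library, counting error reached 7.91% at the 160 reads of a DT library. The spread between DT libraries was 17.0% on the CPM scale. Between the PBS libraries, which held at least 264 reads each, it was 6.43%.

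Of 16 microglia markers tested, 16 had a negative fold change and 7 were called lower with limma, and their summed level was 278 to 342 TPM after PBS and 179 to 203 TPM after DT. Border-associated macrophage markers moved the other way, with 6 of 6 tested positive and 3 called, at 20.5 to 34.8 TPM after PBS and 62.7 to 80.2 TPM after DT. Of 6 monocyte markers, *Plac8*, *Chil3*, *S100a8* and *S100a9* were at 0 reads in all 6 libraries. The others were detected at low levels: *Ly6c2* averaged 4.69 TPM after PBS and 3.63 TPM after DT, and *Ccr2* averaged 0.257 and 0.0837 TPM. The part of these cells in the *Elmo1* difference was not tested. As a description only, the 3 genes whose log2(CPM + 0.1) followed *Elmo1* most closely over the 6 libraries, among 10062 genes whose mean CPM reached 10, were *Zfat* (Pearson r = 0.987), *Khnyn* (r = 0.986) and *Edil3* (r = 0.981). These 6 points share their libraries and the split between the groups.

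*Elmo1* was a minor transcript of its family. *Elmo2*, whose product also binds DOCK1, averaged 111 TPM after PBS and 106 TPM after DT, and *Elmo3* averaged 8.63 and 8.33 TPM. *Elmo1* held 5.41 ± 0.588% (SD, n = 3) of the family's TPM after PBS and 3.94 ± 0.608% (SD, n = 3) after DT, and all DT libraries lay below all PBS libraries. The difference was -1.47 percentage points (exact permutation test, two-sided, p = 0.1, adjusted p = 0.175 over 7 families). Summed over the family, the PBS libraries held 126 ± 11.2 TPM and the DT libraries 119 ± 9.12 TPM (SD, n = 3 each), and they overlapped.

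*Dock1* encodes DOCK180, the exchange factor that loads RAC1 with GTP once ELMO1 has recruited it. It lies on chromosome 7 from 134670654 to 135173639. Its level was 182, 193 and 186 TPM in the PBS libraries and 200, 193 and 176 TPM in the DT libraries. The DT libraries lay on both sides of the PBS range, and the log2 fold change was 0.01 (standard error 0.07, 95% interval -0.15 to 0.16, adjusted p = 0.980 with limma). *Dock2*, the form of blood cells, averaged 1.5 TPM after PBS and 1.41 TPM after DT, and *Dock5* averaged 2.45 and 2.59 TPM, so that *Dock1* held 97.9% of this family in each group (exact permutation test, two-sided, p = 1). *Fam196a* overlaps *Dock1* on the opposite strand, at a mean of 9.49 CPM.

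*Rac1*, the GTPase at which both routes meet, lies on chromosome 5, minus strand, from 143503634 to 143528036. Its level was 316, 313 and 302 TPM in the PBS libraries and 318, 319 and 304 TPM in the DT libraries. The 6 libraries lay close together, and the log2 fold change was 0.00 (standard error 0.06, 95% interval -0.13 to 0.13, adjusted p = 0.991 with limma). This was the narrowest interval of the 10 members. *Daglb* overlaps *Rac1* on the opposite strand, at a mean of 63 CPM. *Rac3*, a form found largely in neurons, was at 12.7, 10.7 and 10.8 TPM in the PBS libraries and 7.76, 8.37 and 7.70 TPM in the DT libraries, a log2 fold change of -0.51 (adjusted p = 0.386 with limma). *Rac2*, the form of blood cells, averaged 0.238 TPM after PBS and 0.478 TPM after DT and was too low to be tested. *Rac1* held 96.4 ± 0.265% (SD, n = 3) of the family after PBS and 97.4 ± 0.157% (SD, n = 3) after DT, with all DT libraries above all PBS libraries (exact permutation test, two-sided, p = 0.1, adjusted p = 0.175 over 7 families). The difference was 0.996 percentage points with TPM and 0.418 with CPM.

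**Figure D3:**
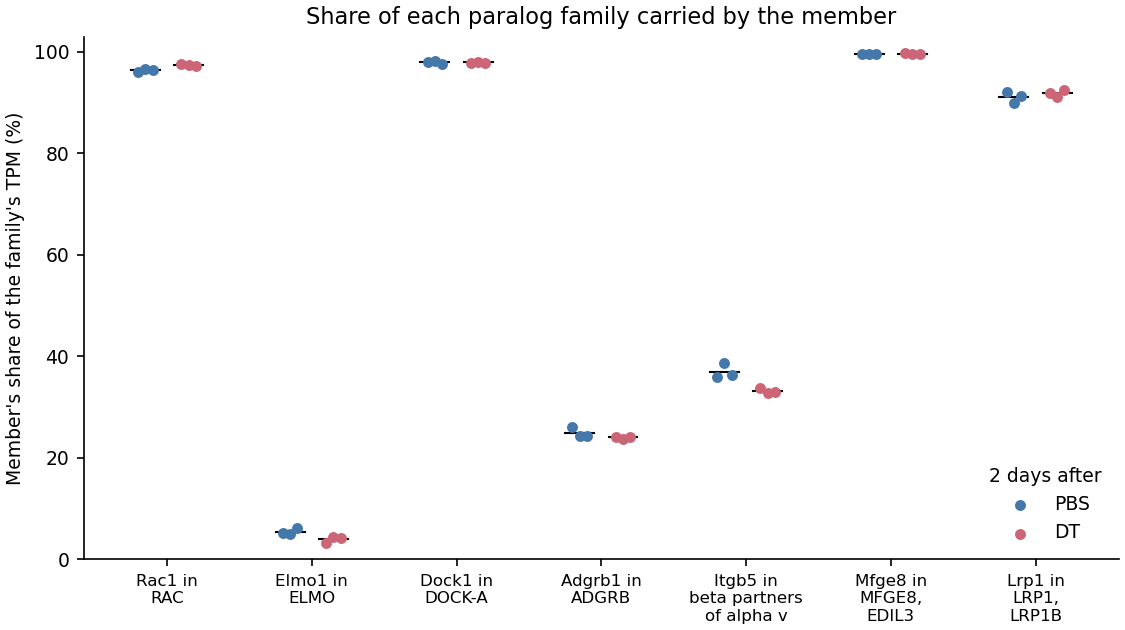
The share of each paralog family's summed TPM that the member carried is plotted in percent, with 1 point per library (blue for PBS, red for DT, 3 libraries each) and a bar at the group mean. Rac1, Dock1, Mfge8 and Lrp1 hold over 90% of their families, whereas Itgb5 holds 37.0% and 33.2%, Adgrb1 24.9% and 24.0%, and Elmo1 5.41% and 3.94% after PBS and DT.

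A wider set of 149 genes of the engulfment pathway, in 10 lists, was read in the same fit. Of these, 137 were tested, 2 rose, 1 fell and 2.19% were called, beside 0.713% of all genes tested. At an unadjusted p-value under 0.05 there were 28, or 20.4%, beside 10.4%. The lists were chosen with earlier results of these data known and hold some microglia markers. These percentages therefore cannot show whether the pathway changed more than other genes. The median log2 fold change was -0.00, beside -0.01 over all genes tested. The genes called had lower mean levels in both groups than 7 of the 10 members.

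*A2m* encodes α2-macroglobulin, a protease inhibitor that LRP1 takes up, and it rose from a PBS mean of 11.6 ± 1.93 TPM to a DT mean of 52.7 ± 4.47 TPM (SD, n = 3 each). Its log2 fold change was 2.18 (adjusted p = 0.000240 with limma), while those of the other LRP1 ligands were not called. *C3*, the complement protein whose fragments opsonise debris, rose from 7.83 ± 0.552 to 20.2 ± 3.39 TPM (SD, n = 3 each), by 1.34 on the log2 scale (adjusted p = 0.00214 with limma). *Itgam* encodes CD11b, the chain of complement receptor 3 against which the depleting beads were directed, and is a microglia marker. It fell from 9.96 ± 1.97 to 1.12 ± 0.301 TPM (SD, n = 3 each), which is -3.09 on the log2 scale (adjusted p = 0.000704 with limma). All 3 calls held in 17 of 17 alternative fits.

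**Figure D4:**
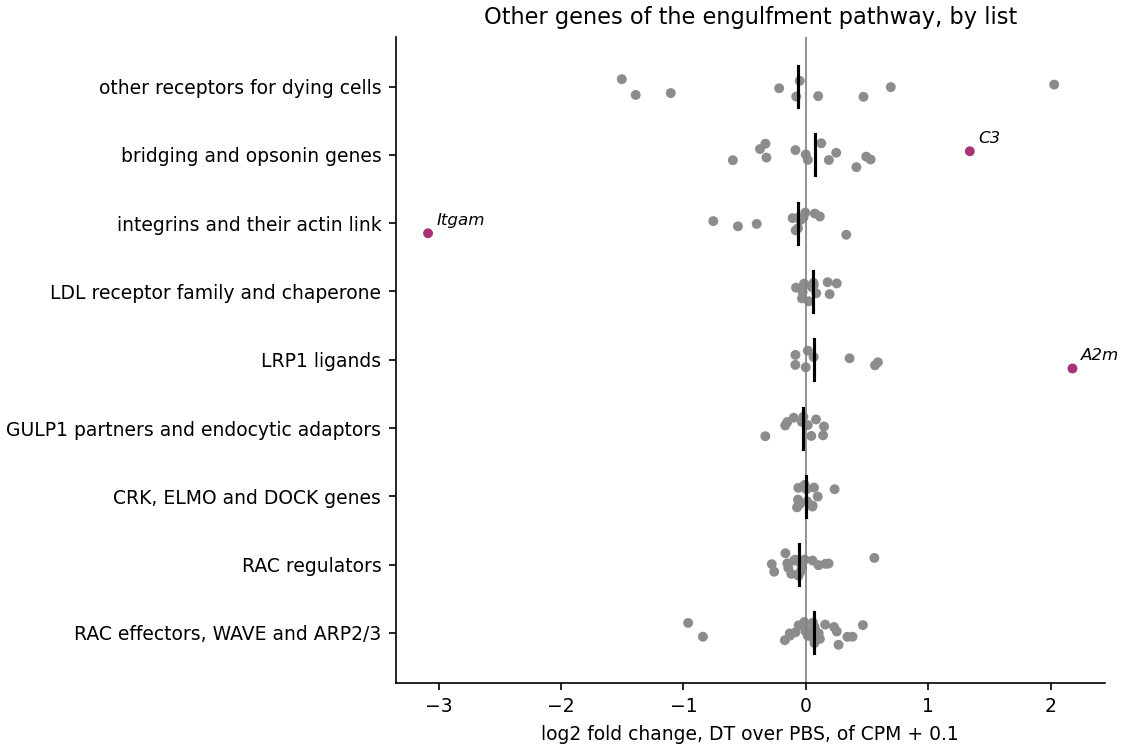
The log2 fold change of CPM + 0.1, DT over PBS, is plotted for the genes tested of each of 9 engulfment lists, with 1 point per gene and a black bar at the list's median. The medians lie between -0.06 and 0.07, and the 3 genes called, A2m and C3 higher and Itgam lower, lie far from them.

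Of 17 other receptors for dying cells, 10 were tested and none was called with limma, with a median log2 fold change of -0.06. Among them, *Scarb1*, a lipoprotein and phosphatidylserine receptor, averaged 25.1 TPM after PBS and 23.8 TPM after DT, and *Stab1*, which border-associated macrophages also express, averaged 8.47 and 11.6 TPM. *Havcr2* (TIM-3) averaged 1.70 TPM after PBS and 0.50 TPM after DT, and *Trem2*, a microglia marker, averaged 4.52 and 1.46 TPM, with adjusted p-values of 0.168 and 0.337 with limma. *Havcr2* was called lower with the edgeR exact test (adjusted p = 0.00488) and with DESeq2 (adjusted p = 0.0368). *Timd2*, *Havcr1*, *Olr1*, *Cd300lb* and *Cd300lf* were at 0 reads in all 6 libraries.

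Of 15 bridging and opsonin genes, 14 were tested and *C3* was the one called, with a median of 0.07. The most abundant were *Apoe*, at 45235 TPM after PBS and 43065 TPM after DT, and *Clu*, at 7839 and 9011 TPM, which encode apolipoproteins that astrocytes secrete. *C1qc*, a microglia marker, averaged 24.3 and 15.9 TPM (adjusted p = 0.340 with limma), and *Apoh* was at 0 reads in 5 of 6 libraries and at 6 reads in PBS library 3. *Calr*, which encodes calreticulin, averaged 1219 and 1242 TPM.

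Of 17 integrins and genes of their actin link, 15 were tested, *Itgam* was the one called, and 12 had a negative fold change, with a median of -0.06. *Fermt2*, which encodes the integrin activator kindlin-2, averaged 440 TPM after PBS and 420 TPM after DT, and *Itga9* averaged 3.46 and 2.35 TPM (adjusted p = 0.249 with limma). *Itgax* was at 0 reads in all 6 libraries. Of 12 genes of the LDL receptor family and its chaperone, 12 were tested and none was called, with a median of 0.06. The chaperone gene *Lrpap1* averaged 246 TPM after PBS and 243 TPM after DT, *Lrp4* averaged 207 and 200 TPM, *Sorl1* averaged 136 and 157 TPM, and *Lrp8*, a reelin receptor, averaged 67.1 and 72.0 TPM. Of the 9 LRP1 ligands tested, *Plat*, the tissue plasminogen activator, averaged 87.7 and 113 TPM (adjusted p = 0.435 with limma), and the median of that list was 0.06.

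In the lists of the routes inside the cell, no gene was called with limma. The 11 GULP1 partners and endocytic adaptors had a median of -0.02. The most abundant were *Cltc*, the clathrin heavy chain, at 257 TPM after PBS and 262 TPM after DT, and *Dnm2*, which encodes the dynamin that severs vesicles, at 183 and 163 TPM. *Dab1*, a reelin adaptor, averaged 108 and 99.5 TPM. The 13 CRK, ELMO and DOCK genes had a median of 0.01, and *Bcar1*, which encodes the CRK partner p130Cas, averaged 63.6 and 75.6 TPM (adjusted p = 0.440 with limma). The 20 RAC regulators had a median of -0.05, 15 of them with a negative fold change, and no unadjusted p-value among them was under 0.05. *Prex2*, a RAC exchange factor, averaged 296 and 281 TPM, and *Abr* and *Bcr*, which promote GTP hydrolysis by RAC, averaged 234 and 218 TPM and 83.5 and 90.5 TPM.

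The list of 28 RAC effectors, WAVE and ARP2/3 genes had a median of 0.06, and 18 of its genes had a positive fold change. *Arpc4*, a subunit of the ARP2/3 complex that branches actin, averaged 61.1 TPM after PBS and 78.3 TPM after DT, with all DT libraries above all PBS libraries (log2 fold change 0.34, adjusted p = 0.140 with limma and 0.0234 with DESeq2). *Cfl1*, which encodes the actin-severing cofilin, averaged 588 and 633 TPM. *Nckap1*, the WAVE complex subunit of most tissues, averaged 303 and 314 TPM, and *Nckap1l*, its counterpart in blood cells, averaged 3.0 and 1.48 TPM (adjusted p = 0.172 with limma, 0.0155 with the edgeR exact test and 0.0234 with DESeq2). *Nckap1l*, *Havcr2*, *Trem2*, *C1qc* and *Itgam* had negative fold changes, as did the 16 microglia markers, of which *Trem2*, *C1qc* and *Itgam* are 3, and the part of microglia in these values was not tested.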

How the data were processed

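RNA-seq libraries of isolated hippocampal astrocytes (3 PBS and 3 DT, grouped by their titles) were analysed from gene tables. Per the submitters' processing notes and the study's methods, reads were trimmed (Trim Galore 0.5.0), checked (FastQC 0.11.8) and mapped to mm10 with HISAT2 2.1.0 using strand, ribosomal reads were removed with bedtools 2.25.0, genes were quantified with StringTie 1.3.5 and groups were compared with edgeR 3.24.3 in R 3.5.1. The tables that the authors deposited hold 1 CPM and 1 TPM value for each gene in each library. The deposited CPM signal is relative to library sizes multiplied by a scaling factor, whereas plain CPM had been assumed in the design. Both tables also hold the deposited log2 fold change, p-value and q-value of the authors' own comparison, which were not used, and 27 gene names had been turned into dates. Within 0.1 read, 100% of CPM values were whole multiples of 1 read, so reads could be recovered.

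Log2(CPM + 0.1) of genes whose mean CPM reached 0.5 was fitted with limma 3.58.1 (R 4.3.3), using a variance trend and no covariate. On this scale the fold change of a gene with few reads comes out too small. Shares of summed TPM in 7 paralog families were compared with exact permutation tests (scipy 1.17.1). The members and lists were chosen with earlier results of these data known. Named were all members and family genes, and of each list the genes called, the 2 with the highest mean TPM and the 2 with the smallest unadjusted p-values, together with markers at 0 and the 3 genes most correlated with the member of smallest p-value. Alternatives were a replicate block, leaving out each library, pseudocounts of 0.5 and 1, no filter or a minimum mean CPM of 2, a fit without the variance trend, TPM and quantile-normalized values, and count tests on recovered reads (edgeR 4.0.16 with its quasi-likelihood and its exact test, DESeq2 1.42.0). On these reads, edgeR called 87 genes higher and 24 lower with the quasi-likelihood test and 191 and 72 with the exact test, and DESeq2 called 227 and 98. Of the 10 pathway lists, 1 enters the pooled counts but is not reported here. The fits were tested on simulated data. Coordinates and transcripts are those of GENCODE M21 on mm10.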

Additional observations from a re-analysis of the deposited data

How the results depend on the processing

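No member passed the adjusted threshold under any of the 17 alternatives, and *A2m*, *C3* and *Itgam* were called in all 17. In the wider lists, 3 genes were called lower with the edgeR exact test and 3 with DESeq2, in each case *Itgam* with *Havcr2* and *Nckap1l*, and the cause was not tested. Without PBS replicate 3, *Stab1* was also called higher, as was *Clu* with quantile normalization and *Arpc4* with DESeq2. With 1 library left out, the log2 fold change ranged from -0.65 to -0.41 for *Elmo1*, from -0.33 to -0.18 for *Mfge8*, from -0.21 to -0.10 for *Itgb5*, from -0.41 to -0.11 for *Megf11*, from -0.23 to -0.09 for *Gulp1* and from 0.01 to 0.14 for *Lrp1*. It changed sign for the others, whose ranges were -0.123 to 0.0494 for *Adgrb1*, -0.0381 to 0.0694 for *Itgav*, -0.0499 to 0.0638 for *Dock1* and -0.0239 to 0.0294 for *Rac1*. The difference in share of *Dock1* within its family was -0.0127 percentage points with CPM in place of TPM, which are not scaled to length, and ranged from -0.159 to 0.109 with 1 library left out. That of *Mfge8* ranged from -0.0280 to 0.0483, that of *Adgrb1* from -1.18 to -0.237 and that of *Lrp1* from 0.0616 to 1.13, and that of *Rac1* was 0.418 with CPM.

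The groups share replicate numbers, but the study's methods do not tie these numbers to its experiments, so the libraries were not treated as paired. The deviations from the group means correlated by 0.115, 0.0105 and 0.118 for numbers 1 to 3. Whether equal numbers mark the same experiment remains unknown. The correlations for numbers 1 and 3 were the 2 highest of all 9 pairs, and PBS library 2 correlated about equally with DT libraries 1 and 2 (0.0107 and 0.0105). With the replicate number as a block, 0 members were called higher and 0 lower, 2 and 1 genes of the wider lists, and 79 and 30 genes of all, against 84 and 24. The unadjusted limma p-value of *Mfge8* was 0.0034 with the block and 0.0163 without it (adjusted 0.134 and 0.362). That of *Elmo1* was 0.0121 with the block and 0.00742 without it (adjusted 0.217 and 0.266). With 3 libraries a group and 160 to 368 reads, the interval of *Elmo1* was wide, and a difference of its size could not be told from none after adjustment over all genes.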
